A study of Rattus norvegicus with 6 samples.

Results

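The small leucine-rich proteoglycans of the collagen matrix were followed in the Achilles tendon of newborn rats, at post-natal day 1, and of pups at post-natal day 7. The family was taken by gene symbol and not by a cutoff on measured values, but with earlier results of these data known. Its 10 genes were Dcn, Bgn, Fmod, Lum, Kera, Ogn, Prelp, Aspn, Omd and Podn. A gene was measured where the platform annotation gave at least 1 probe set to that gene alone, and 9 of the 10 were, among 14217 such genes in the series. Kera, which encodes keratocan, was not analysed here. Each gene was represented by its brightest probe set, judged by the mean log2 value of the 6 arrays, and the other probe sets of Ogn and Aspn, the members with several, served as a check.

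Each age had 3 Affymetrix rat arrays, and each array held RNA pooled from at least 2 animals. The tissue was taken by dissection, with no sorting of cells described, so a value averages over all cells of the dissected piece. With 3 pools of each age, p-values reflect pool-to-pool spread. Neither strain nor sex, nor how the animals were pooled, is stated in the sources used here. In such bulk samples fewer cells of a type and less RNA per cell cannot be told apart.

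Small leucine-rich proteoglycans have a curved core protein of leucine-rich repeats that binds collagen fibrils, and most carry glycosaminoglycan chains that reach between neighbouring fibrils. Decorin and biglycan carry chondroitin or dermatan sulfate, whereas fibromodulin, lumican and keratocan can carry keratan sulfate. In tendon these proteins bind type I collagen and govern how fibrils thicken and fuse. Class I holds Dcn, Bgn and Aspn, class II holds Fmod, Lum, Kera, Prelp and Omd, class III holds Ogn, and class V holds Podn.

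The arrays were close in overall brightness, with a median intensity between 20.5 and 21.1, and a negative control, the bacterial trp transcript, read between 3.74 and 4.76. Tendon genes were present at both ages. Scx, a transcription factor of tendon cells, read 603 to 897 on day 1, against 797 to 835 on day 7, and tenomodulin, Tnmd, had a log2 change of 0.70 (limma adjusted p = 0.163). Of 12 measured tendon markers, limma called 4 higher on day 7 and 0 lower, against 1.93% and 3.15% of all genes. The 4 were Itgbl1, Comp, Cilp2 and Clec11a, while Scx (limma adjusted p = 0.646) and Tnmd were not called. This list was chosen with earlier results of these data known, so the share called is a description. The summed intensity of the 12 was 27136 to 47004 on day 1, against 50627 to 66877 on day 7. Fmod is itself 1 of the 12.

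Most members read higher on day 7, osteomodulin and fibromodulin by the most, whereas Aspn, Lum and Prelp had log2 changes between -0.04 and 0.18. Dcn and Omd rose (limma, adjusted p under 0.05), against 1.93% of all genes called higher. No member was lower by limma, adjusted or at an unadjusted p under 0.05, against 3.15% of all genes called lower and 17.0% lower at an unadjusted p under 0.05. At an unadjusted p under 0.05, 6 of 9 members were higher, against 10.6% of all genes. The median log2 change of the 9 members was 0.66 and that of all genes was -0.01. In 5 of 9 members all day 7 arrays lay above all day 1 arrays, as did 14.0% of all genes, and 8 of 9 had a positive change, as did 48.0% of all genes. These counts describe the family, which was proposed with earlier results of these data known.

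**Figure D1:**
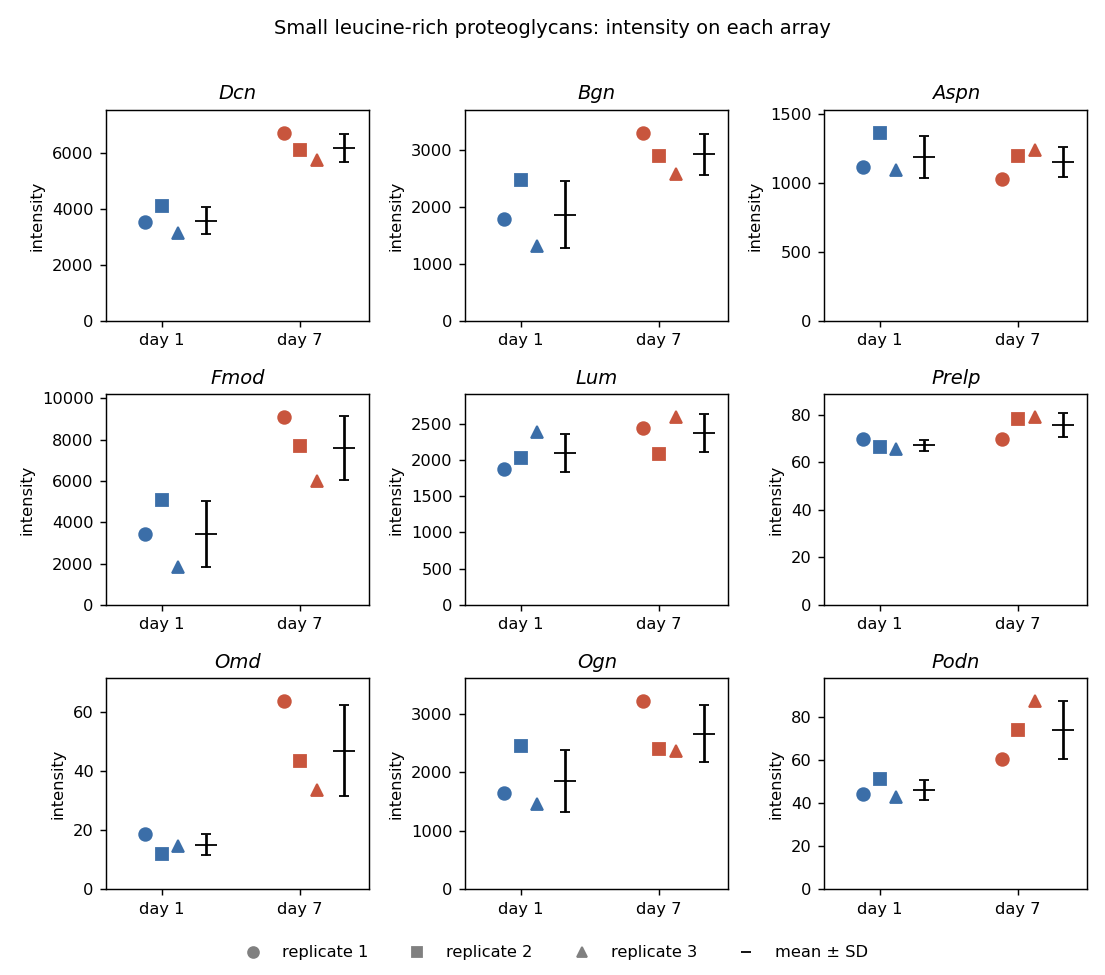
Intensity (linear scale, from 0) of each measured member on each of the 6 arrays, by age, with the replicate shown by the symbol and the mean ± SD of 3 arrays in black. Dcn, Bgn, Fmod, Omd and Podn have no overlap between ages, whereas the ages overlap for Aspn, Lum, Prelp and Ogn.

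Decorin, Dcn, the dermatan sulfate proteoglycan that limits lateral fusion of collagen fibrils, read 3531, 4113 and 3136 on day 1 (replicates 1, 2 and 3) and 6741, 6117 and 5753 on day 7. The ages were far apart and the replicates close together. Dcn rose 1.73-fold, with a 95% interval from 1.40-fold to 2.14-fold (log2 change 0.79, SE 0.13, limma adjusted p = 0.0277). The call held without day 1 replicate 2 (adjusted p = 0.0321). Leaving out any other single array ended it, with an adjusted p of 0.10 and 0.0736 without replicates 1 and 3 of day 1, and of 0.117, 0.0515 and 0.0608 without replicates 1, 2 and 3 of day 7, while the log2 change stayed between 0.70 and 0.90.

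Biglycan, Bgn, the closest relative of decorin, which carries chondroitin or dermatan sulfate chains, read 1793, 2479 and 1311 on day 1 and 3300.3, 2886 and 2575 on day 7. Every day 7 array lay above day 1, but day 1 replicate 2 came close to the lowest day 7 array. The log2 change of 0.69 was near that of Dcn, with a larger SE of 0.22, and did not pass the test (limma adjusted p = 0.126; 0.0482 without day 1 replicate 2). The SD of the log2 values on day 1 was 0.46 for Bgn and 0.20 for Dcn, against a median of 0.17 over the 9607 genes brighter than the median probe set.

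Asporin, Aspn, the class I member named for a run of aspartic acid residues, read 1115, 1366 and 1095 on day 1 and 1034, 1196 and 1238 on day 7, and the ages overlapped throughout. Its log2 change was -0.04 (limma adjusted p = 0.888), with a 95% interval from 0.787-fold to 1.20-fold. A second probe set read 719, 861 and 720.1 on day 1 and 766, 759 and 1013 on day 7, with a log2 change of 0.13. The sign of the Aspn change therefore depended on the probe set, and it was also positive after quantile normalization (0.06).

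Fibromodulin, Fmod, a class II member that shares a collagen binding region with lumican and is abundant in tendon, read 3423, 5056 and 1825 on day 1 and 9099, 7670.2 and 5999 on day 7. The ages did not overlap, and day 1 replicate 3 stood apart as the lowest array. Fmod was 2.37-fold higher on average, with a 95% interval from 1.37-fold to 4.09-fold, and did not pass the test (limma adjusted p = 0.0888). Array weights brought it below the threshold (0.0423), as did leaving out day 1 replicate 2 (0.0419). The log2 change was 0.85 without day 1 replicate 3 and 1.58 without day 1 replicate 2, so each of these arrays moved the fold change by a large part of its size. Its SD of log2 values on day 1 was 0.74, the largest of the 9 members and above 0.38, the 90th percentile of brighter genes at that age.

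Lumican, Lum, the class II relative of fibromodulin that acts early in fibril assembly, read 1882, 2028 and 2388 on day 1 and 2443, 2079 and 2595 on day 7. The ages overlapped, since day 1 replicate 3 lay above day 7 replicate 2. The log2 change was 0.18 (SE 0.14, limma adjusted p = 0.491), and the 95% interval ran from 0.908-fold to 1.41-fold. Day 1 replicate 3, on which Fmod, Bgn, Ogn and Dcn were lowest, was the highest day 1 array for Lum.

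Prelp, a class II protein with a basic amino-terminal stretch that binds heparin, read 70.0, 66.3 and 65.5 on day 1 and 69.9, 78.3 and 79.2 on day 7. The values lay in a narrow band, and day 7 replicate 1 equalled the day 1 level. The log2 change was 0.17 (SE 0.11, limma adjusted p = 0.391), with a 95% interval from 0.950-fold to 1.33-fold. The 1.73-fold rise measured for Dcn lay outside the 95% intervals of Aspn, Lum and Prelp. The interval of Dcn itself began at 1.40-fold and overlapped that of Lum, which ended at 1.41-fold.

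Osteomodulin, Omd, also called osteoadherin, a class II member best known from bone matrix, read 18.7, 11.8 and 14.6 on day 1 and 63.9, 43.6 and 33.6 on day 7. Omd lay below the median probe set on each day 1 array and above it on each day 7 array, and all values exceeded the negative control. Its mean was 15.1 ± 3.47 on day 1, against 47.0 ± 15.4 on day 7 (SD, n = 3). Omd thus rose 2.94-fold (log2 change 1.55, SE 0.25, limma adjusted p = 0.0243). The 95% interval ran from 1.98-fold to 4.35-fold. The call held without day 1 replicate 2 (adjusted p = 0.0440), day 7 replicate 2 (0.0447) or day 7 replicate 3 (0.0408). The adjusted p was 0.0571 and 0.0709 without replicates 1 and 3 of day 1, and 0.0861 without replicate 1 of day 7, which ended the call. A low gene is compressed by a larger pseudocount, and with 16 in place of 1 the log2 change was 1.00 (adjusted p = 0.0578). Markers of bone, where osteomodulin is abundant, had a median log2 change of -0.03. Of 7 measured, limma called 0 in either direction, against 1.93% and 3.15% of all genes called higher and lower. It also called 0 at an unadjusted p under 0.05, against 10.6% and 17.0% of all genes. The summed intensity of the 7 was 65.0 to 76.5 on day 1, against 58.2 to 74.2 on day 7. Apart from Bglap and Spp1, these markers averaged only 5.39 (Phex) to 8.37 (Alpl) on day 1, not far above the negative control. Sp7, Runx2 and Ifitm5 were not measured, so the list says little about bone.

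Osteoglycin, Ogn, the class III member also called mimecan, read 1649.8, 2449.8 and 1454 on day 1 and 3229, 2405 and 2371 on day 7. Day 1 replicate 2 lay above the lower pair of day 7 arrays, so the ages overlapped. Its 4 probe sets had log2 changes of 0.55, 0.51, 0.60 and 0.38, all positive and none called (limma adjusted p from 0.170 to 0.238).

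Podocan, Podn, the class V member, read 44.2, 51.3 and 42.8 on day 1 and 60.3, 73.9 and 87.5 on day 7. The ages did not overlap. The log2 change was 0.66 (SE 0.15), short of the threshold (limma adjusted p = 0.0610), but it passed once arrays were weighted (0.0441) or when tested among the probe sets brighter than the median (0.0443). In size its change was close to those of Dcn and Bgn, from a much dimmer probe set.

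**Figure D2:**
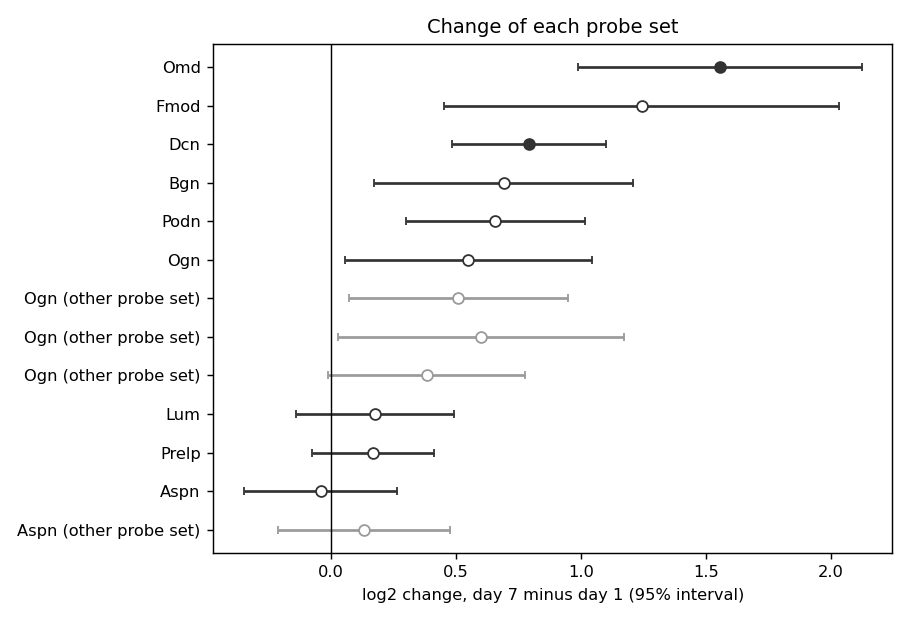
Log2 change (day 7 minus day 1) of each probe set of the 9 measured members, with 95% intervals from limma; black marks the probe set that represents the gene, grey the others, and filled points an adjusted p under 0.05. Omd (1.55) and Fmod (1.24) stand to the right, and Lum, Prelp and Aspn lie near 0.

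The members were compared with each other through the log2 ratio of both genes on the same array, since levels of different probe sets cannot be set against each other. The change of a ratio from day 1 to day 7 shows unequal change and leaves out anything that scales an array as a whole. Its size is the difference of the log2 changes of both genes, given above. Only its spread over the arrays is new. Of the 36 pairs, 17 had ratios that did not overlap between ages (47.2%), against 34.2% of all pairs of genes in the series. The exact two-sided permutation test has 20 assignments of 6 arrays and cannot go below p = 0.10, so no pair can pass, and the smallest adjusted p over the 36 pairs was 0.212.

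Omd had the largest log2 change and Aspn the lowest, which fixes the direction of their ratios to all other members. The largest change among the pairs was that of Omd to Aspn, whose log2 ratio rose by 1.60 (SE 0.43; exact permutation p = 0.10, adjusted p = 0.212). Relative to the day 1 mean this ratio stood at 0.41, -0.50 and 0.10 on the day 1 arrays and at 2.23, 1.48 and 1.07 on day 7, without overlap. The ratio of Omd to Ogn changed by 1.01 (SE 0.40; exact permutation p = 0.10), also without overlap. With a pseudocount of 16 the change of Omd to Aspn was 1.04, still without overlap, whereas that of Omd to Ogn was 0.45 and its ages overlapped (exact permutation p = 0.30). Omd ratios did not overlap between ages in 6 of its 8 pairs, and those of Aspn in 7 of 8.

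Within class I, the ratio of Dcn to Bgn stayed within its replicate spread, whereas that of Dcn to Aspn did not overlap between ages. The log2 ratio of Dcn to Bgn changed by 0.10 (SE 0.16; exact permutation p = 0.60), with overlapping ages, and its sign turned without day 1 replicate 2 (-0.03). Dcn relative to Aspn stayed between -0.07 and 0.07 around its day 1 mean on day 1 and reached 1.11, 0.76 and 0.63 on day 7, a change of 0.83 (SE 0.15; exact permutation p = 0.10).

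Between the class II partners Fmod and Lum the ratio changed by 1.07 (SE 0.56; exact permutation p = 0.20). Its values around the day 1 mean were 0.27, 0.72 and -0.99 on day 1 and 1.30, 1.29 and 0.61 on day 7. The ages overlapped, because day 1 replicate 2 lay above day 7 replicate 3, and day 1 replicate 3 lay far below the others. Without day 1 replicate 3 the change was 0.57. Fmod relative to Prelp changed by 1.07 (SE 0.48; exact permutation p = 0.20), and Dcn relative to Lum by 0.62 (SE 0.23; exact permutation p = 0.10). The ratio of Lum to Prelp changed by 0.01 (SE 0.17) and overlapped, with -0.21 to 0.23 on day 1 against -0.22 to 0.17 on day 7.

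**Figure D3:**
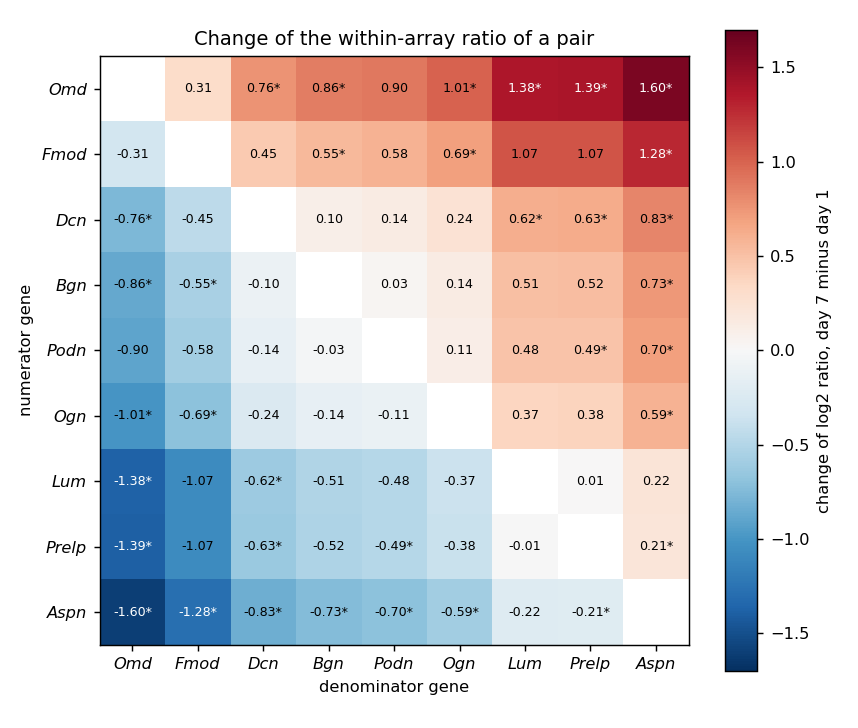
Change of the within-array log2 ratio of each pair of members (day 7 minus day 1), with the numerator gene in rows and the denominator gene in columns, ordered by the genes' own changes; an asterisk marks ratios that do not overlap between the 3 day 1 and the 3 day 7 arrays. The Omd row is red throughout, with its deepest colour against Aspn, and the block of Dcn, Bgn, Podn and Ogn is pale.

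Type I collagen, the fibril protein these proteoglycans bind, is the natural yardstick for the family. The mean log2 value of Col1a1 and Col1a2 changed by 0.47 (SE 0.21), and neither gene passed limma (adjusted p = 0.179 and 0.170). Against this mean, 3 members were higher on all day 7 arrays (Dcn, Fmod and Omd), as were 1.44% of all genes. One member, Aspn, was lower on all day 7 arrays, as were 49.1% of all genes. Dcn gained 0.33 on type I collagen (SE 0.09), Fmod 0.77 (SE 0.26) and Omd 1.09 (SE 0.34), while Aspn fell by 0.51 (SE 0.21), each with an exact permutation p of 0.10, the smallest possible (adjusted p = 0.225 over 9 members). Dcn relative to collagen stood at -0.09, -0.08 and 0.17 on the day 1 arrays and at 0.28, 0.35 and 0.34 on the day 7 arrays. For Omd the gain was 0.53 with a pseudocount of 16, and the ages then overlapped. After quantile normalization the change of Aspn was -0.32 with overlapping ages (exact permutation p = 0.30), while Bgn, at 0.37, no longer overlapped (exact permutation p = 0.10). Bgn had a change of 0.22 (SE 0.10) and Ogn of 0.08 (SE 0.12), with overlapping ages.

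The day 1 arrays differed from each other in a way that most members shared. Day 1 replicate 2 was the highest day 1 array for 6 of 9 members, and day 1 replicate 3 the lowest for 7 of 9. The share of all genes with this order was not counted. The medians of the 11 tendon markers other than Fmod had it too (-0.18, 0.05 and -0.92 on day 1). The median of the members relative to the mean of the 6 arrays was -0.38, -0.10 and -0.58 on day 1 and 0.52, 0.34 and 0.22 on day 7. Lum, highest on day 1 replicate 3, and Omd and Prelp, highest on day 1 replicate 1, departed from this order.

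Marker lists of tissues in and around the tendon moved over the same arrays. Of all genes, 1.93% were called higher and 3.15% lower. The 11 tendon markers other than Fmod had medians of -0.18, 0.05 and -0.92 on day 1, against 0.57, 0.22 and 0.19 on day 7. The 13 cartilage markers had medians of -0.55, -0.14 and -0.37 on day 1, against 0.56, 0.48 and 0.23 on day 7, with 2 called higher and 0 lower by limma. Their summed intensity was 1137 to 2965 on day 1, against 3041 to 5593 on day 7, and Col2a1, the main collagen of cartilage, had a log2 change of 1.33 (limma adjusted p = 0.0932). The 19 skeletal muscle markers ran the other way, with medians of 0.46, 0.18 and 0.61 on day 1, against -0.41, -0.02 and -0.75 on day 7, 1 called higher and 5 lower. Their summed intensity was 65602 to 80071 on day 1, against 42349 to 59584 on day 7.

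Of 13 adipocyte markers 7 were called higher and 0 lower, with a summed intensity of 1919 to 2067.5 on day 1, against 3234 to 6247 on day 7. Of 9 markers of loose connective tissue and paratenon fibroblasts 2 were called higher and 0 lower, and the sum was 6114 to 7025 on day 1, against 7304 to 8338 on day 7. Epidermal markers summed to 171 to 6029 on day 1, where replicate 1 alone was high, against 182 to 424 on day 7. Limma called 1 higher and 1 lower of 10 nerve markers, 1 higher of 9 endothelial markers and 1 higher of 10 macrophage markers. The nerve markers summed to 2277 to 2638 on day 1, against 2659.7 to 9592 on day 7, where their medians were 0.46, -0.69 and 0.90 and replicate 2 stood apart. None of these lists had a marker at or below the negative control on average. All marker lists were chosen with earlier results of these data known. Their part in the changes of the family was not tested.

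**Figure D4:**
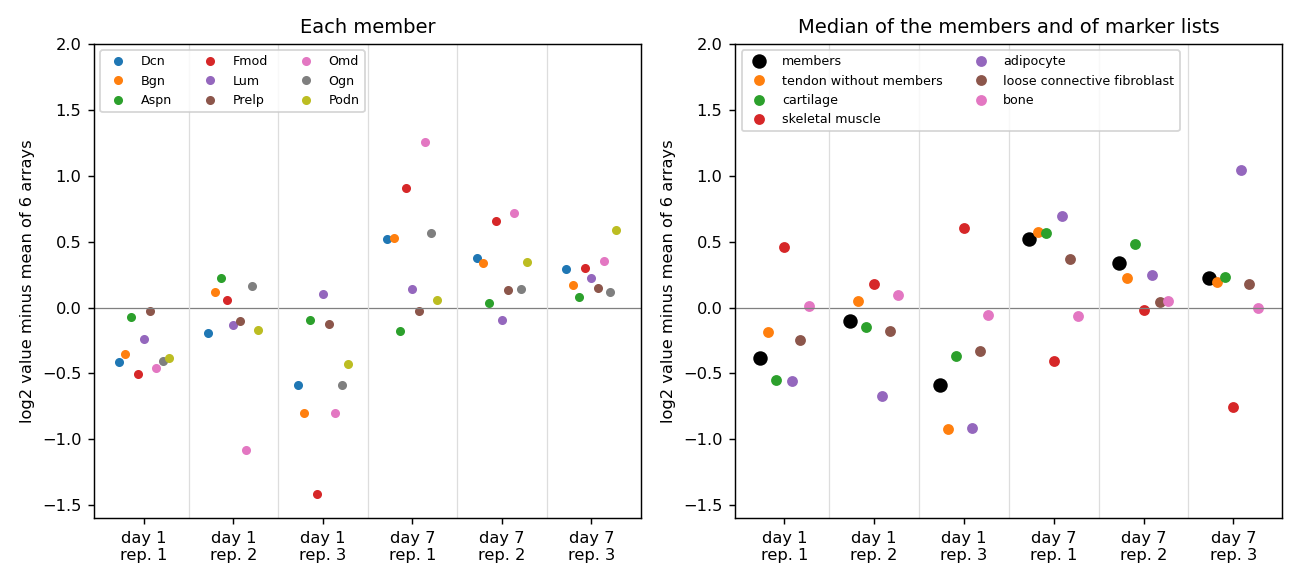
Log2 values relative to the mean of the 6 arrays, by array, for each member (left) and for the median of the 9 members and of marker lists (right). The members' median runs from -0.58 on day 1 replicate 3 to 0.52 on day 7 replicate 1, the tendon and cartilage markers move in the same direction, and the muscle markers move in the opposite one.

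Several members are neighbours in the genome, and the measured changes of neighbours were unlike in size. In the RefSeq gene order of the rat assembly GRCr8, Dcn lies next to Lum, which lies next to Kera. Prelp lies next to Fmod, and Ogn, Omd and Aspn follow each other. Omd changed by 1.55 on the log2 scale, while Ogn on one side changed by 0.55 and Aspn on the other by -0.04. Dcn and its neighbour Lum changed by 0.79 and 0.18, and Fmod and Prelp by 1.24 and 0.17. The ratio of Fmod to Prelp overlapped between ages, and that of Omd to Ogn did so with a pseudocount of 16. No pair could pass the permutation test. The 250 bases before the annotated start are shown for the trio Omd, Ogn and Aspn, 3 adjacent genes with unlike changes, and for Fmod and Lum, a class II pair that shares a collagen binding region. They come from RefSeq (GRCr8), which held an entry for 6 of the 9 measured members, and are written in the direction of transcription. Capitals mark E-boxes (CANNTG, the motif bound by Scx and other helix-loop-helix factors) and Smad boxes (AGAC, or GTCT on the other strand). Both motifs were searched on both strands, and matches that overlap or touch run together.
Omd, chr17:15274871-15275120, minus strand: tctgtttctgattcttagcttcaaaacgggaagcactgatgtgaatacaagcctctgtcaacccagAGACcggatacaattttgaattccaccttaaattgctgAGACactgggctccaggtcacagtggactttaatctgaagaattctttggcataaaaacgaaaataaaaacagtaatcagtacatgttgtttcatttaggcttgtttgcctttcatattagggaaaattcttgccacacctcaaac
Ogn, chr17:15258996-15259245, minus strand: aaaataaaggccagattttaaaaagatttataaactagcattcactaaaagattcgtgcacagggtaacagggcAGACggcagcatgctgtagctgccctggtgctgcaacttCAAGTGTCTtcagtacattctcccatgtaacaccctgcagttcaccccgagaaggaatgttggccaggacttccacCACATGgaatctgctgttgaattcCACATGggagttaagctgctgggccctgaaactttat
Aspn, chr17:15310470-15310719, minus strand: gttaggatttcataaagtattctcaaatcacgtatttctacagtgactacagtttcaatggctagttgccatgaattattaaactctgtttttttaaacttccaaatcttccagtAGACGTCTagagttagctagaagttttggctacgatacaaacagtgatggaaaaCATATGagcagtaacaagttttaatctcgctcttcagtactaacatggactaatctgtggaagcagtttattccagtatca
Fmod, chr13:48045317-48045566, plus strand: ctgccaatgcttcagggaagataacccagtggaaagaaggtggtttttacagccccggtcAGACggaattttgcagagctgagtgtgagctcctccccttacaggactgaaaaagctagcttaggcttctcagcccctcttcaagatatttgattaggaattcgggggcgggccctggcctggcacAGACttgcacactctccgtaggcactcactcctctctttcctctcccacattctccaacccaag
Lum, chr7:34245456-34245705, plus strand: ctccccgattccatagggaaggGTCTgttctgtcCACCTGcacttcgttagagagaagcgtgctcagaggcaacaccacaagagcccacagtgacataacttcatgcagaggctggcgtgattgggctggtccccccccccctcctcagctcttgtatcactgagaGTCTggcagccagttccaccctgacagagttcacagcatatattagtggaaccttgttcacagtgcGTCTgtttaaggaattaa

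An E-box was found in 65.5% of the 33469 rat promoters of this length and a Smad box in 84.0%. The windows of Omd and Fmod held 0 E-boxes and 2 Smad boxes each. The window of Ogn held 3 E-boxes, 1 of them overlapping a Smad box, and those of Aspn and Lum held 1 each. Aspn had 2 Smad boxes and Lum 3. The window of Podn, not printed here, held 1 E-box and 0 Smad boxes. Among the 6 members with an entry, 2 had no E-box and 1 had no Smad box. A match describes these letters only.

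Among the enzymes that build the chains of these proteoglycans, limma called 2 lower and 0 higher, both in the keratan sulfate list. Of 18 measured genes of the linkage region and of chondroitin and dermatan sulfate, limma called 0 in either direction. At an unadjusted p under 0.05, 3 of the 18 were higher and 0 lower, against 10.6% and 17.0% of all genes. The median log2 change of the 18 was 0.08. At the largest change of this list, the sulfotransferase Chst12 had a log2 change of 0.57 (limma adjusted p = 0.0834). Of 12 genes of keratan sulfate synthesis 2 fell (16.7%, against 3.15% of all genes) and 0 rose, with a median of 0.02. At an unadjusted p under 0.05, 3 of the 12 were higher and 2 lower, again against 10.6% and 17.0% of all genes. B4galt1, a galactosyltransferase that extends lactosamine chains, read 135, 104 and 150 on day 1 and 58.0, 84.3 and 62.7 on day 7 (log2 change -0.92, limma adjusted p = 0.0430). St3gal1, a sialyltransferase, fell by 0.64 on the log2 scale (limma adjusted p = 0.0421). Both calls were lost when all probe sets of the gene were averaged (adjusted p = 0.349 and 0.649, log2 changes of -0.17 and -0.08), that of B4galt1 also in 4 of the 6 fits without 1 array and that of St3gal1 in each of the 6 fits without 1 array. Neither enzyme acts on keratan sulfate alone.

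The lists of enzymes, proteases, collagens, partners and relatives together had 77 measured genes. Of these, 2 were called higher and 3 lower, against 1.93% and 3.15% of all genes. Among 9 measured genes of sulfate supply and tyrosine sulfation, 1 rose and 0 fell, with a median of 0.14. The gene that rose was Tpst1, which encodes a Golgi enzyme that sulfates tyrosines, a modification carried by the amino-terminal regions of fibromodulin, lumican and osteomodulin. Tpst1 read 408, 544 and 380.1 on day 1 and 1005, 869 and 789 on day 7, without overlap. Tpst1 rose (log2 change 1.01, SE 0.16, limma adjusted p = 0.0256) and kept its call in 2 of the 6 fits without 1 array. Its relative Tpst2 had a log2 change of 0.14 (limma adjusted p = 0.524). Papss2, which makes the sulfate donor, had one of 0.58 (limma adjusted p = 0.0523).

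The 9 measured proteases known to cut members of the family had a median log2 change of 0.27. Against 1.93% and 3.15% of all genes called higher and lower, limma called 0 of them lower and 1 higher. It was the stromelysin Mmp3, which read 4.99, 4.40 and 5.25 on day 1, near the negative control, and 95.6, 136 and 32.1 on day 7 (limma adjusted p = 0.0141). No fold change is given for it. Its call was lost with a pseudocount of 16 (adjusted p = 0.0604) and without replicate 1 of either age (0.0554 for day 1 and 0.0793 for day 7). Of 12 collagens that members bind or share fibrils with, limma called 0 in either direction. At an unadjusted p under 0.05, 4 were higher and 0 lower, against 10.6% and 17.0% of all genes. The collagens' median was 0.39, and Col11a1 and Col14a1 had log2 changes of 1.00 and 0.77 (limma adjusted p = 0.0964 and 0.0794). Among 11 growth factors and receptors that bind members or act with them, Bmp4 alone passed. It fell by 0.98 on the log2 scale (limma adjusted p = 0.0314), and its call was kept in 2 of the 6 fits without 1 array.

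Of the 6 other small leucine-rich proteins measured, limma called 0 in either direction, and the median log2 change was 0.07. At an unadjusted p under 0.05, 2 were higher and 1 lower, against 10.6% and 17.0% of all genes. Ecm2, a class I relative of decorin, read 161, 199.8 and 107 on day 1 and 445, 362 and 249 on day 7. It did not overlap between ages and had a log2 change of 1.18 (limma adjusted p = 0.0590). Tsukushi, Tsku, lay lower on all day 7 arrays, with a log2 change of -0.44 (limma adjusted p = 0.121). Chondroadherin, Chad, had a change of 0.43 (limma adjusted p = 0.124), and Chadl one of 0.18 (0.486). Opticin, Optc, and Podnl1 had changes of -0.09 and -0.05 (0.730 and 0.797). Chad, Optc and Podnl1 were all far below the median probe set.

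**Figure D5:**
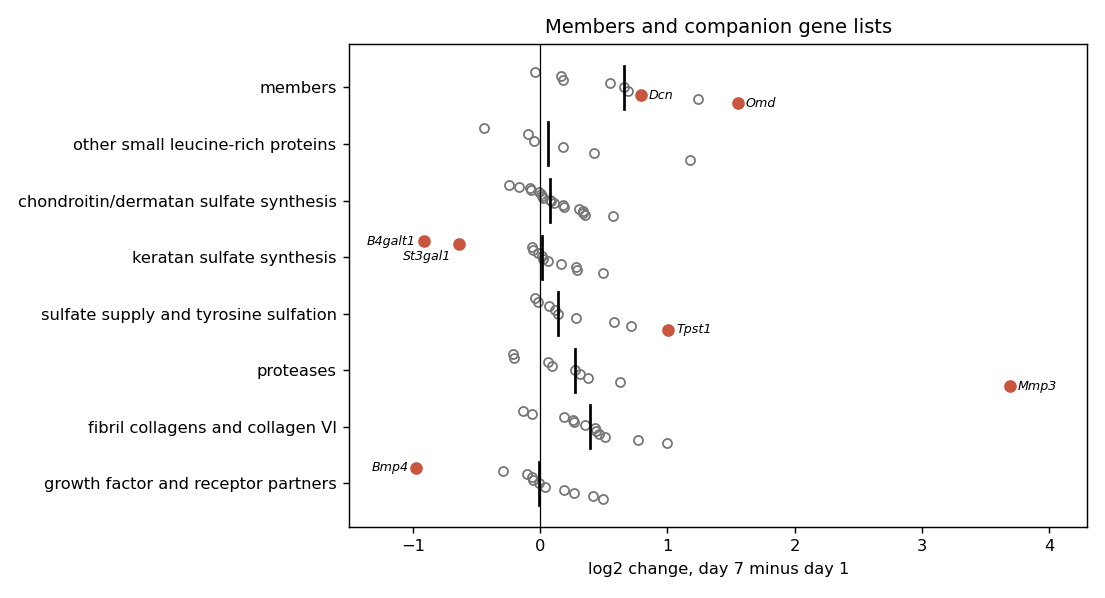
Log2 change (day 7 minus day 1) of the 9 members and of the genes of 7 companion lists, 1 circle per gene, with filled circles for a limma adjusted p under 0.05 and a vertical bar for the median of each list. The members' median of 0.66 lies to the right of those of the 7 lists, and the value of Mmp3 starts from a day 1 level near the negative control.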

How the data were processed

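The authors deposited linear intensity values for 31099 probe sets on each array. MAS5 and RMA are named in the submitters' processing notes, with no role or version. How background and scale were treated is not given in the sources used here. After leaving out 57 controls, 31042 probe sets were tested. The platform annotation gave 20826 of them 1 gene symbol, 436 several and 9780 none. The 9 measured members all matched RefSeq by gene identifier.

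Tests used log2(intensity + 1) with no further normalization. The ages were compared with lmFit and eBayes of limma 3.58.1 in R 4.3.3 (two-sided). P-values were adjusted by Benjamini-Hochberg across the whole table, and 0.05 was the threshold. Changes are day 7 minus day 1, and SE and 95% intervals are limma's moderated ones. A change on this scale understates that of low genes. Pair ratios and ratios to type I collagen were tested by exact permutation over the 6 arrays (SciPy 1.17.1).

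Text names all members, the other small leucine-rich proteins, up to 4 called genes of each companion list, Col1a1, Col1a2, Scx, Tnmd, Col2a1, 7 fixed pairs (Kera to Lum was not analysed here) and the 3 genes nearest each called member. Chst12, Tpst2, Papss2, Col11a1, Col14a1 and the pairs Dcn to Aspn and Lum to Prelp were named after their values were seen. So were the called tendon markers Itgbl1, Comp, Cilp2 and Clec11a. The members and lists were chosen with earlier results of these data known. The fit was tested on simulated data. Alternatives were other normalizations, a pseudocount of 16, only brighter probe sets, the mean of probe sets, array weights, a variance trend, a replicate block, each array left out, and both arrays numbered 2 left out.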

Additional observations from a re-analysis of the deposited data

How the results depend on the processing

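Replicate numbers gave no sign of pairing the samples: deviations of same-numbered arrays correlated at 0.05, -0.25 and -0.14 over all probe sets. With 3 arrays of each age this cannot exclude a pairing. With the replicate block limma called 0 members higher (Dcn adjusted p = 0.0787, Omd 0.0540), and 0 companion genes higher and 0 lower, against 2 and 3 without it.

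The count of members called higher, 2 of 9, was 1 with a pseudocount of 16 (Dcn), 4 with array weights, 1 without both arrays numbered 2, and from 0 to 4 without 1 array. The 0 came from leaving out replicate 1 or 3 of day 1, or replicate 1 of day 7. Companion genes called higher and lower numbered 4 and 1 after quantile normalization, and 9 higher with array weights. They were 5 higher with a variance trend, 0 lower with a pseudocount of 16, 1 lower with the mean of probe sets, and from 0 to 7 higher and from 0 to 2 lower without 1 array. Pairs without overlap numbered from 17 to 25 and members without overlap against collagen from 4 to 6 without 1 array, and the latter 7 without both arrays numbered 2. Fewer arrays make overlap rarer. The cause of the other shifts was not tested.

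Signs turned for changes near 0. Aspn had 0.055 after quantile normalization, 0.046 with the mean of probe sets, 0.034 without both arrays numbered 2, and from -0.098 to 0.061 without 1 array. Optc had 0.023 without both arrays numbered 2 and from -0.19 to 0.016 without 1 array, and Scx from -0.013 to 0.27. The ratio of Dcn to Bgn had -0.023 without both arrays numbered 2 and from -0.027 to 0.24 without 1 array. Against collagen, Ogn ranged from -0.022 to 0.16 and Podn from -0.0016 to 0.41. The few arrays and, for Omd on day 1, a signal near the median probe set limit precision.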

Other observations

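For each called member, the 3 genes with the most similar profile were found among the 9598 other genes brighter than the median probe set. Similarity was the root mean square difference over the 6 arrays of log2 values centred on the gene's mean. Nearest to Dcn were Hsd3b7, a steroid dehydrogenase of bile acid synthesis (difference 0.06), Ankh, which exports ATP and pyrophosphate (0.07), and Serpinb6a, an intracellular protease inhibitor (0.07). Hsd3b7 read 65.1, 82.0 and 65.5 on day 1 and 137, 121 and 119 on day 7, a rise of 1.77-fold (limma adjusted p = 0.0243). Ankh rose 1.72-fold and Serpinb6a 1.68-fold (limma adjusted p = 0.0344 and 0.0233). Without 1 array the calls of Hsd3b7, Ankh and Serpinb6a held in 2, 1 and 2 of 6 fits.

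Nearest to Omd were C1qtnf2, a secreted relative of complement C1q (0.21), Mamdc2, a secreted proteoglycan with MAM domains (0.23), and Crabp1, a retinoic acid binding protein (0.25). C1qtnf2 read 175, 159 and 178 on day 1 and 532, 406 and 349 on day 7, and rose 2.47-fold (limma adjusted p = 0.0141). Mamdc2 rose 2.93-fold (limma adjusted p = 0.0326), from 22.2, 13.8 and 12.5 on day 1 to 57.7, 59.8 and 31.9 on day 7. Crabp1 rose 3.39-fold (limma adjusted p = 0.0141). The calls of C1qtnf2, Mamdc2 and Crabp1 held in 4, 1 and 5 of 6 fits without 1 array, and that of Mamdc2 was lost with a pseudocount of 16 (adjusted p = 0.0709). The genes were chosen for this likeness, so their direction is a description, and with 6 arrays many genes share such a profile.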
